A study of Mus musculus with 8 samples.

Results

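Microtubule and growth cone cytoskeleton genes were compared between cortical neurons that lack the histone variant H2BE and wild-type cortical neurons of the mouse. The genes were taken by symbol from a fixed list of 45: 13 tubulins, 14 microtubule-associated proteins, 4 stathmins, 5 genes of the Crmp family, 6 growth cone proteins and 3 ankyrin and spectrin genes. All 45 had a row among the 26229 in the authors' deposited table and all were among its 18085 tested genes. The knockout group (KO) comprised 4 libraries of primary neurons with the genotype H2BE-KO/mCherry-KI, in which the H2BE gene was knocked out and mCherry knocked in. The wild-type group (WT) comprised 4 libraries. Neurons of both groups were taken from mouse embryos at E16.5 and cultured for 12 days, and polyadenylated RNA was sequenced. They are labelled as biological replicates, without saying whether 1 embryo or a pool gave each library or which stretch of the gene the cassette replaced.

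Microtubules are polymers of alpha- and beta-tubulin dimers, and gamma-tubulin nucleates them. Microtubule-associated proteins bind and stabilize the lattice or its growing end, stathmins bind free tubulin dimers and promote disassembly, and the collapsin response mediator proteins (Crmp, encoded by Crmp1 and the Dpysl genes) link guidance signals to the cytoskeleton. Axons extend through the growth cone, where microtubules meet an actin network tied to the membrane by proteins such as GAP43, MARCKS and BASP1. Neurons express several tubulin isotypes, and the balance of isotypes and associated proteins changes as they mature: doublecortin and MAP1B are typical of young neurons, MAP1A of mature ones.

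The values are those of 1 comparison of the genotypes, with no value per library. A mean normalized count is a count divided by the library's size factor and averaged over all 8 libraries. Log2 fold changes are KO over WT, so a positive value means higher in KO, and their standard errors (SE) carry the spread between the 4 and 4 libraries. A gene was called at an adjusted p under 0.05 by the authors' test. The header gives no direction, which was read from the targeted gene H2bc21, which encodes H2BE (ENSMUSG00000068854, chromosome 3 from 96221119 to 96223738 in GRCm38). The deposited fold change of H2bc21 is positive (3.45), so every deposited sign was turned. This holds for each value credited here to the authors' deposited table. With that reading the authors' deposited table puts H2bc21 at -3.45 (SE 0.19, adjusted p = 4.49e-68), so that KO held 9.12% of the WT level. Were that reading wrong, each rise given here would be a fall and each fall a rise. The mean per genotype was implied from a gene's mean normalized count and fold change, and is given with no error of its own.

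Of the 45 genes, 22 rose in KO, 3 fell and 20 were not called. Among all tested genes in the authors' deposited table, 11.0% rose and 10.9% fell, and 21.8% were called in either direction. These shares are the background for each count of calls given below. Most of the 45 are abundant, and abundant genes are called more often. Of tested genes whose mean normalized count reached 10000, 36.1% were called, 20.2% higher and 15.9% lower. Of the 32 of the 45 at that level 20 rose and 1 fell, Map1a, whereas of the other 699 genes at that level 128 rose and 115 fell. The median log2 fold change was 0.27 over the 45 and -0.02 over all tested genes. The genes that rose did so by modest amounts: 13 of the 22 by at least 1.5-fold, and only Dcx and Stmn1 by more than 2-fold. The list was drawn up with results of these data known, so its counts are a description. No gene of the list was called when the authors' Wald statistic was read against a t distribution with 6 degrees of freedom in place of the normal one, with Benjamini-Hochberg adjustment. That reading left 1 call over all tested genes, against 3948 by the authors' test. So few calls remain over all genes that the loss is not particular to the 45. At an unadjusted p under 0.05 it gave 22 higher and 3 lower among the 45, and 4219 calls over all tested genes.

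**Figure D1:**
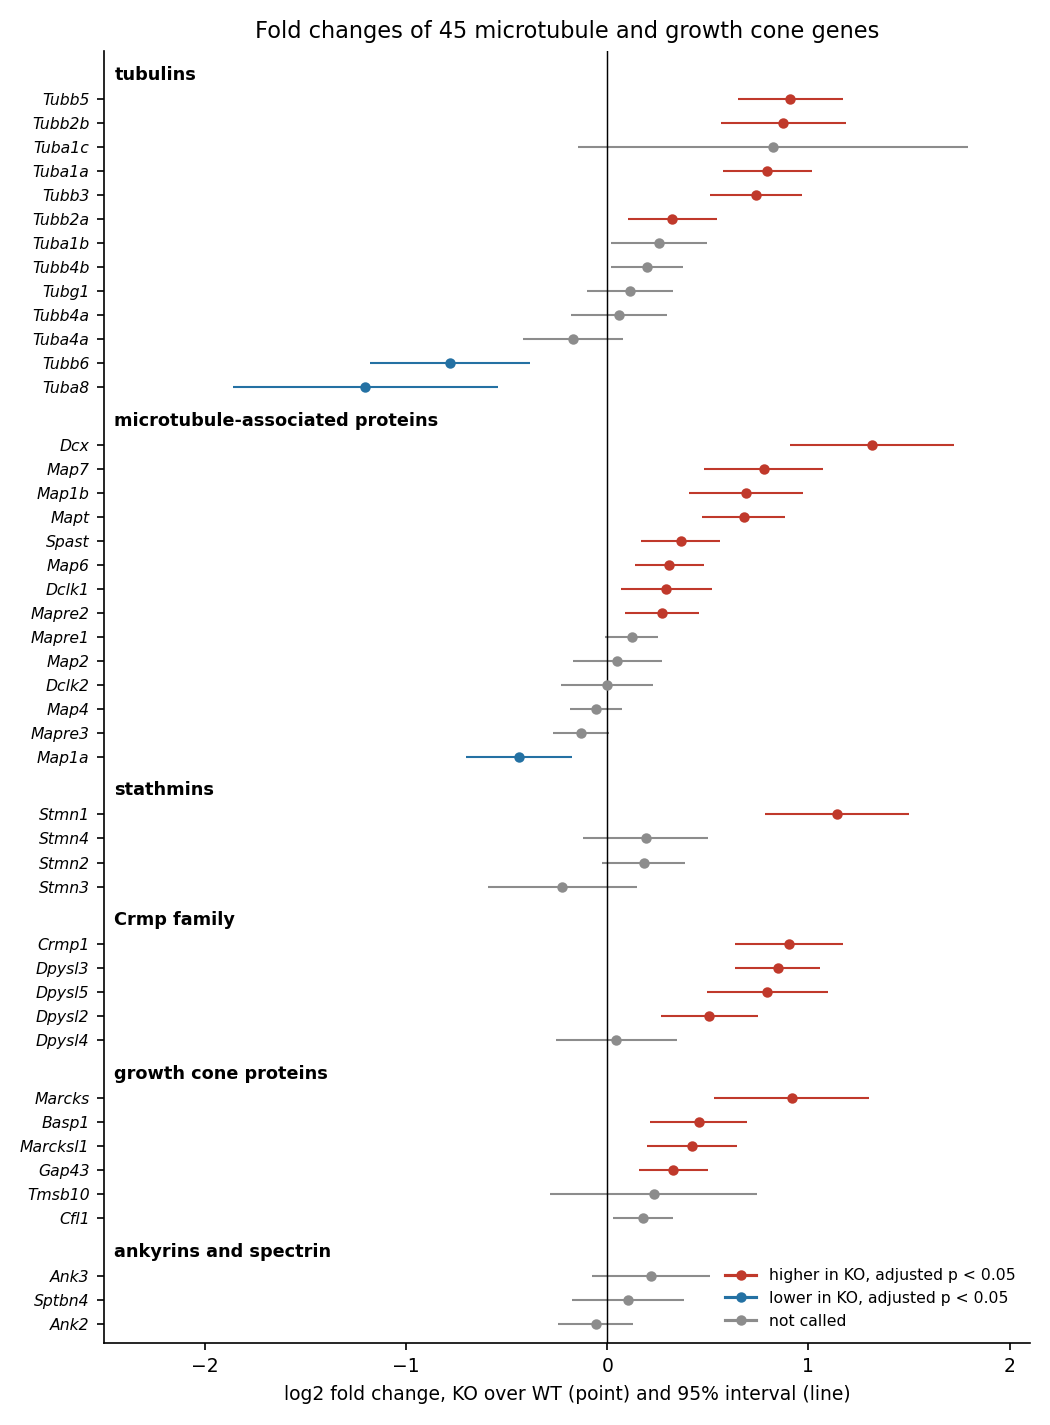
Log2 fold change, KO over WT, of each of the 45 genes (points) with the 95% interval from the deposited SE (lines), grouped by role. Red marks the 22 genes higher in KO, blue the 3 lower (Tubb6, Tuba8 and Map1a) and grey the 20 not called; most points lie right of 0, and the widest interval is that of Tuba1c, the gene of lowest count.

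To show the upstream DNA of genes that were called and not called, 5 windows of 250 bases before the RefSeq start (GRCm38.p6) are given 5′ to 3′ on the gene's strand. They are Tubb5, Dpysl5 and Tubb2a, which rose, Tubb4b, a beta-tubulin gene that was not called, and Map1a, which fell. Windows were chosen among genes with 1 entry and at most 30 bases of annotated exon. Capitals mark exact matches on either strand to any of 5 motifs. The first is the core promoter's box with the letters TATAAA. The second is CCAAT, bound by the factor NF-Y. The third is the GC box, GGGCGG, bound by Sp factors. The fourth, CAGATG, is a form of E-box bound by neurogenic bHLH factors, and the fifth, ACAAAG, is bound by Sox factors.
Tubb5: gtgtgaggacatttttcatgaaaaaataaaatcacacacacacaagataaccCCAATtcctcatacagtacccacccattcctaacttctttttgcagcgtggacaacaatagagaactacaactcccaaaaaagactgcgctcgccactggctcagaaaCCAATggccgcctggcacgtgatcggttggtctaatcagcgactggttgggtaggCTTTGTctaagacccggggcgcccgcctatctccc
Dpysl5: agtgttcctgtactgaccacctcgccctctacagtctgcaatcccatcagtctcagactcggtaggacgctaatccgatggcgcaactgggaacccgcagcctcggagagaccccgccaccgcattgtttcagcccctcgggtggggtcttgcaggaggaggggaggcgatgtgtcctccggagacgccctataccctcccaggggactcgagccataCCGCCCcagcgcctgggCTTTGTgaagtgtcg
Tubb2a: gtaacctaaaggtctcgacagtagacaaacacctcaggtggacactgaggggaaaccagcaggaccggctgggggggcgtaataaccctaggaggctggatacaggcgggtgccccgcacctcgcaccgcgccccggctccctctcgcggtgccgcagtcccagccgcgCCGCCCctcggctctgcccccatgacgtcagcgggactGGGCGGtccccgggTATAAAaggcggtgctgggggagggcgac
Tubb4b: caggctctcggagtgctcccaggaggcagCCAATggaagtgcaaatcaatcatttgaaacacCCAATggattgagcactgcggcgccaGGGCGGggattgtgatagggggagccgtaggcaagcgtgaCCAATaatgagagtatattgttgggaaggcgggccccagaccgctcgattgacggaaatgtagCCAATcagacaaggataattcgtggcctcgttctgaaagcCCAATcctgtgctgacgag
Map1a: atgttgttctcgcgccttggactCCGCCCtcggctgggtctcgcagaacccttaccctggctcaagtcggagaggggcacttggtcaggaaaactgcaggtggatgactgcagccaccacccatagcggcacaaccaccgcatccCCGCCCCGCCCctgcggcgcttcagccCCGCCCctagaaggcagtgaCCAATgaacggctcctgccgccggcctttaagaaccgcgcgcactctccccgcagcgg
The windows lie at chr17:35838302-35838551 on the minus strand (Tubb5), chr5:30711314-30711563 on the plus strand (Dpysl5), chr13:34078009-34078258 on the minus strand (Tubb2a), chr2:25224703-25224952 on the minus strand (Tubb4b) and chr2:121289352-121289601 on the plus strand (Map1a). No motif letters overlapped another motif, though GC boxes of Map1a overlapped each other. Tubb4b held 5 CCAAT matches and Tubb5 2, while Dpysl5 and Tubb2a held none. Map1a held 4 GC-box matches, Tubb2a 2, Dpysl5 and Tubb4b 1 each and Tubb5 none. Only Tubb2a among the 5 had TATAAA, and none had CAGATG.

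Of the 45 genes, 30 had an entry, 13 of them genes that rose, 2 that fell and 15 not called. A GC box stood in 9 of the 13, 1 of the 2 and 9 of the 15, against 32.7% of all 32851 windows. A CCAAT box stood in 6, 1 and 7, against 33.9%. CAGATG stood in 1 of the 13 genes that rose and in 4 of the 15 not called, against 14.4%, ACAAAG in 4 and 3, against 5408 of the 32851 windows, and TATAAA in 3 and 2, against 12.4%. A gene with several starts was counted as having a motif where any of its windows held it. The background is a share of single windows, so counts of genes and these percentages differ in unit. These are letter matches and were not tested.

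Tubulins were higher mainly through the isotypes that make up most of the neuron's tubulin mRNA. Of 5 alpha-tubulin genes 1 rose, 1 fell and 3 were not called, and of 7 beta-tubulin genes 4 rose, 1 fell and 2 were not called. The shares higher and lower were 20% and 20% for alpha-tubulins and 57.1% and 14.3% for beta-tubulins. Over all tested genes they were 11.0% and 10.9%. Levels of different genes are compared per kilobase of exon. Tuba1a, the main alpha-tubulin gene of postmitotic neurons, was the most abundant of the 45 with 99185 mean normalized counts per kb, and its implied level was 125891 per kb in KO and 72479.9 per kb in WT. It lies at chr15:98949837-98953703 on the minus strand (GRCm38). In the authors' deposited table its log2 fold change was 0.80 (SE 0.11, adjusted p = 3.31e-10). Tuba1b, the widely expressed alpha isotype, was at 4915 per kb in KO and 4113 per kb in WT, and was not called at 0.26 (SE 0.12, adjusted p = 0.118). Tuba4a was at -0.17 (SE 0.13) and also not called, and Tuba1c, with a mean normalized count of 23.0, was at 0.82 (SE 0.49, adjusted p = 0.238). Tuba8, a rare isotype with a mean normalized count of 55.8, fell to -1.20 (SE 0.34, adjusted p = 0.00331). The order of alpha-tubulin levels was Tuba1a, Tuba1b, Tuba4a, Tuba8 and Tuba1c in both genotypes.

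Among beta-tubulins, Tubb5 rose to 0.91 (SE 0.13, adjusted p = 1.18e-09) and Tubb2b, an isotype of developing cortex, to 0.88 (SE 0.16), per the authors' deposited table. Tubb3, the neuron-specific isotype, rose to 0.74 (SE 0.12, adjusted p = 2.32e-08), and Tubb2a rose less, to 0.32 (SE 0.11, adjusted p = 0.0244). Implied levels were 40420 per kb in KO and 22034 per kb in WT for Tubb2b, 32887 and 19722 for Tubb3, 32157 and 25701 for Tubb2a, and 20809 and 11080 for Tubb5, in that order of genotypes. Tubb2a thus had the highest implied beta-tubulin level in WT and Tubb2b in KO. Tubb4a, an isotype that gains weight in the mature brain, was not called at 0.06 (SE 0.12) and neither was Tubb4b at 0.20 (SE 0.09, adjusted p = 0.112). Tubb6, an isotype low in neurons, with a mean normalized count of 268, fell to -0.78 (SE 0.20, adjusted p = 0.00142). Tubg1, the gamma-tubulin gene, was not called at 0.11 (SE 0.11).

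**Figure D2:**
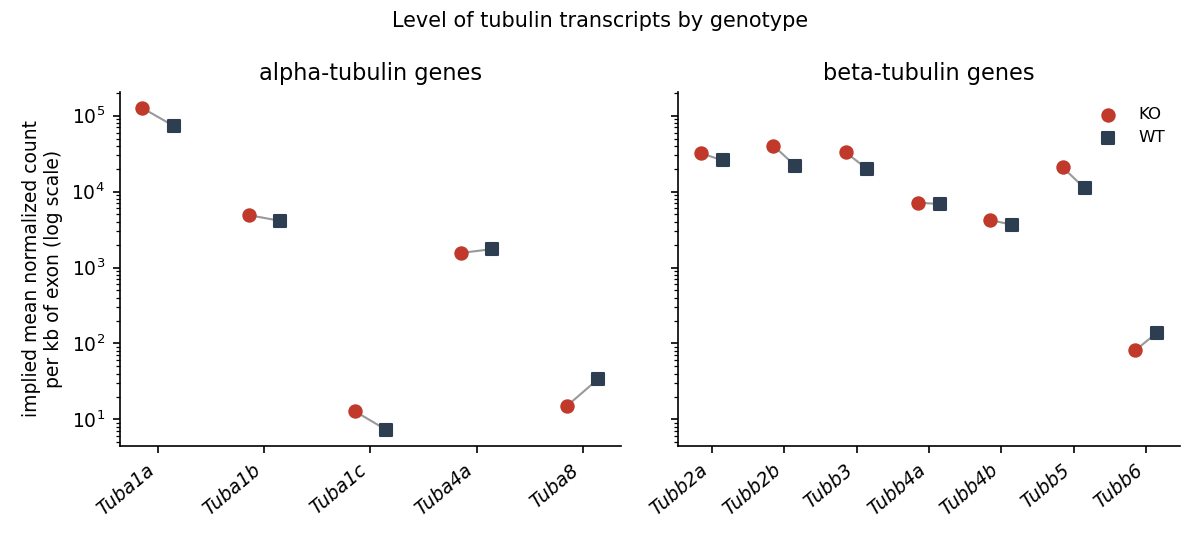
Implied mean normalized count per kb of exon (log axis) of alpha- and beta-tubulin genes in KO (red circles, left) and WT (dark squares, right). Tuba1a stands above all other alpha-tubulins at 125891 per kb in KO and 72479.9 per kb in WT, and the lines of Tuba4a, Tuba8 and Tubb6 run the other way from those of the isotypes that rose.

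Summed per kb, alpha-tubulin levels were 132389 in KO and 78386.8 in WT, 1.69-fold, and beta-tubulin levels 137711 in KO and 89206.5 in WT, 1.54-fold. Tuba1a accounted for 95.1% of alpha-tubulin in KO and 92.5% in WT, and Tuba4a for 1.18% in KO and 2.24% in WT. Tubb2b accounted for 29.4% of beta-tubulin in KO and 24.7% in WT, Tubb5 for 15.1% and 12.4%, Tubb2a for 23.4% and 28.8%, and Tubb4a for 5.19% and 7.69%, KO before WT each time. Shares of counts not divided by length differ in size: Tuba4a made up 2.38% of alpha-tubulin in KO and 4.47% in WT, and Tubb5 23.1% of beta-tubulin in KO and 19.5% in WT. By counts Tubb2b also exceeded Tubb2a in both genotypes, with 30.9% in KO and 26.8% in WT for Tubb2b and 17.3% in KO and 21.9% in WT for Tubb2a. These shares are sums of implied means and have no test.

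Neighbouring tubulin copies had different fold changes. Tuba1a and Tuba1b lie 15.3 kb apart on chromosome 15, and the 95% interval of the log2 fold change was 0.58 to 1.02 for Tuba1a and 0.02 to 0.50 for Tuba1b. Tubb2a and Tubb2b lie 48.7 kb apart on chromosome 13, with intervals of 0.10 to 0.55 for Tubb2a and 0.56 to 1.19 for Tubb2b. Neither difference was itself tested. The copies have stretches of identical sequence, so reads may be shared between them. Of windows of 50 bases along the longest annotated transcript, 73.8% of Tuba1b's, 72.9% of Tuba1a's and 61.0% of Tuba1c's also occur in transcripts of another gene. The share was 49.6% for Tubb2a, 39.3% for Tubb2b and 50.9% for Tubb4b, whereas it was under 1% for Tubb5 (0.115%), Tubb4a (0.184%) and Tuba8 (0.181%). Counts of the Tuba1 genes, Tubb2a, Tubb2b and Tubb4b are uncertain to that extent, as are those of Tmsb10 (43.5%) and Stmn1 (36.5%). The other 37 of the 45 stayed under 20%, and 24 shared no window. How the authors' counting treated such reads is not given in the sources used here. Tuba4a also shares 37.3% of its exon bases with the opposite-strand gene Stk16, which was not called at -0.15 (SE 0.07). On the same strand, the annotated gene Gm49450, which has no row, shares 26.2% of the exon bases of Tuba1a and 22.7% of those of Tuba1b. On the opposite strand, Gm15856, also with no row, covers 16.3% of Tuba8, and Snx32, which was not called, covers 468 exon bases of Cfl1.

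Among microtubule-associated proteins, 8 of 14 rose, 1 fell and 5 were not called. Dcx, the X-linked gene of doublecortin (chrX:143855842-143933311, minus strand, GRCm38), had the largest fold change of the 45. Its implied mean normalized count was 35510 in KO and 14255 in WT, and the authors' deposited table puts it at 1.32 (SE 0.21, adjusted p = 2.48e-08). Its paralogs on the list, Dclk1 and Dclk2, which join a doublecortin domain to a kinase, had smaller fold changes. Dclk3, outside the list, had a larger one (2.53, SE 0.51). Dclk1 rose to 0.29 (SE 0.11, adjusted p = 0.0486), the weakest call of the list, and Dclk2 was not called (interval -0.23 to 0.23). Mapt, the gene of the axonal protein tau, rose to 0.68 (SE 0.11, adjusted p = 1.74e-08), with implied counts of 84641 in KO and 52919 in WT.

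The MAP1 pair moved in opposite directions. Map1b, which is abundant in growing axons, rose to 0.69 (SE 0.14, adjusted p = 4.45e-05) in the authors' deposited table, with implied counts of 147176 in KO and 91336 in WT. Map1a, its counterpart in mature dendrites, fell to -0.44 (SE 0.13, adjusted p = 0.00876), with implied counts of 32667 in KO and 44201 in WT. Map1a was the only abundant gene of the list that fell. It overlaps the opposite-strand gene Ppip5k1 by 272 bases, or 2.24% of its exons, and Ppip5k1 was also lower at -0.60 (SE 0.12, adjusted p = 8.91e-06). The use of strand in counting is not given in the sources used here, and the part of Ppip5k1 in the value of Map1a was not tested. Map2, the main dendritic MAP and the fourth of the list by mean normalized count, had implied counts of 92060 in KO and 88904 in WT. Its log2 fold change of 0.05 (SE 0.11, interval -0.17 to 0.27) was not called.

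Map7, a lattice protein that recruits kinesin, rose to 0.78 (SE 0.15, adjusted p = 8.31e-06) in the authors' deposited table, although its mean normalized count was only 548. Map6, which stabilizes microtubules against cold, rose to 0.31 (SE 0.09) and Spast, the gene of the severing enzyme spastin, to 0.36 (SE 0.10, adjusted p = 0.003). Map4, a widely expressed lattice protein, was not called at -0.05 (SE 0.07). Of the 3 genes of end-binding proteins, which track growing plus ends, Mapre2 rose to 0.27 (SE 0.09, adjusted p = 0.0213), while Mapre1 at 0.12 (SE 0.07) and Mapre3 at -0.13 (SE 0.07) were not called. Map6, Dclk1 and Mapre2 lost their calls when fold changes were corrected for the GC content and exon length of the genes. Under that same correction Map4 and Ank2 were called lower and Tuba1b, Tubb4b and Cfl1 higher.

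A single stathmin accounted for the calls of its family. Stmn1, which is highest in immature and dividing cells, rose to 1.14 on the log2 scale (SE 0.18, adjusted p = 2.96e-08) per the authors' deposited table, with implied counts of 36599.7 in KO and 16566 in WT. Stmn2, the growth-associated neuronal stathmin and the most abundant of the family by count, had 76981 implied counts in KO and 67885 in WT and was not called at 0.18 (SE 0.11, interval -0.02 to 0.39). Stmn4 at 0.19 (SE 0.16) and Stmn3 at -0.22 (SE 0.19) were not called either. Implied levels per kb were 19042.5 in KO and 8619 in WT for Stmn1, and 23834 in KO and 27824 in WT for Stmn3. They were 13742 in KO and 12118 in WT for Stmn2, and 12349.0 in KO and 10823 in WT for Stmn4. By this measure Stmn3 was the highest in both genotypes, and Stmn1 came second in KO and last in WT. The order depends on the length used, as the exons of Stmn1 total 1922 bases and its longest annotated transcript 1060. By counts not divided by length Stmn2 was the highest in both genotypes, and Stmn1 exceeded Stmn3 in KO, at 36599.7 and 27076.

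Of the 5 Crmp genes, 4 rose and 1 was not called, and all 5 lay above 0, with a median of 0.80. Dpysl3 had the smallest adjusted p of the 45. In the authors' deposited table its log2 fold change was 0.85 (SE 0.11, adjusted p = 3.32e-12), with implied counts of 136105 in KO and 75697 in WT. Crmp1 rose to 0.90 (SE 0.14, adjusted p = 4.06e-09) and Dpysl5 to 0.80 (SE 0.15, adjusted p = 6.03e-06). Dpysl2, the gene of CRMP2, which binds tubulin dimers and promotes axon growth, rose less, to 0.51 (SE 0.12, adjusted p = 5.27e-04). Dpysl4, the least abundant with a mean normalized count of 4574, was at 0.05 (SE 0.15, interval -0.25 to 0.34). Summed over the family, implied counts were 268584 in KO and 153479 in WT, 1.75-fold.

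All 4 genes grouped as growth cone membrane proteins rose, and the 2 grouped as actin proteins, Tmsb10 and Cfl1, were not called. Marcks, the gene of a substrate of protein kinase C that binds the membrane and actin, rose to 0.92 (SE 0.20, adjusted p = 6.47e-05) in the authors' deposited table. Its paralog Marcksl1 rose to 0.42 (SE 0.11), Basp1 to 0.45 (SE 0.12) and Gap43, the classical axon growth marker, to 0.33 (SE 0.09, adjusted p = 0.00208). Gap43 had implied counts of 45854 in KO and 36517 in WT, against 13365 in KO and 7078 in WT for Marcks. Tmsb10, which sequesters actin monomers, was at 0.23 (SE 0.26), the widest error among those of the 45 whose mean normalized count reached 10000. Cfl1, the gene of the actin-severing protein cofilin, was at 0.18 (SE 0.08, adjusted p = 0.0805), just outside the threshold.

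None of the 3 ankyrin and spectrin genes, whose products anchor membrane proteins to the axonal skeleton, was called by the authors' test. None had an unadjusted p under 0.05, but Ank2 was called lower, at -0.31 (adjusted p = 0.00976), when fold changes were corrected for GC content and exon length. Ank3, the gene of ankyrin-G of the axon initial segment, was at 0.22 (SE 0.15, interval -0.07 to 0.51), its partner Sptbn4 at 0.10 (SE 0.14) and Ank2 at -0.06 (SE 0.10) in the authors' deposited table.

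**Figure D3:**
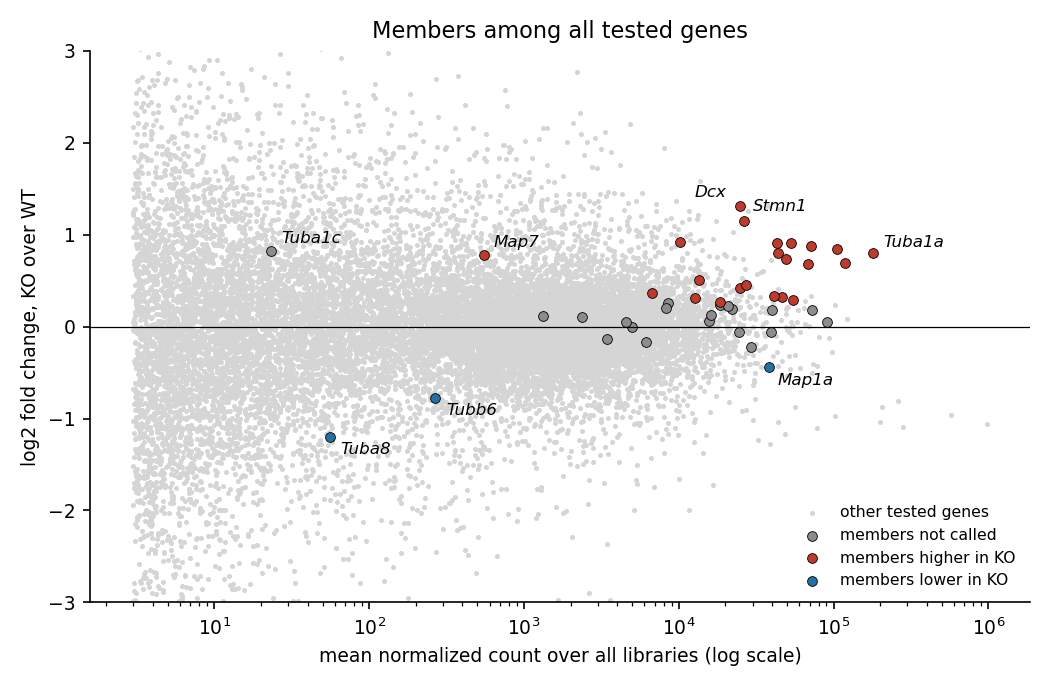
Log2 fold change, KO over WT, against mean normalized count (log axis) for all tested genes (light grey) and the 45 genes (red higher, blue lower, dark grey not called); 206 genes beyond 3 in either direction lie outside the axis. The genes that rose sit at the right, among the most abundant transcripts, except Map7 and Spast.

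Other genes of the pathway were called in both directions. A further list of 128 genes was looked up, 125 had a row and 122 were tested. Of these 31 rose, 13 fell and 78 were not called, with a median log2 fold change of 0.12. The shares are 25.4% higher and 10.7% lower, against 11.0% and 10.9% of all tested genes and 20.2% and 15.9% of those whose mean normalized count reached 10000. Only 25 of these other pathway genes reached that count, of which 5 rose and 1 fell. The rises are near the 20.2% of abundant genes that rose, while the falls are below the 15.9% that fell. Tuba3a, Tuba3b and Tubal3 had no row. Of 8 other tubulin and gamma ring complex genes only Tubgcp2 was called, at 0.41 (SE 0.11) in the authors' deposited table. Of 25 genes of tubulin folding and modification, 7 rose and 4 fell. Vash2 (1.36, SE 0.19, adjusted p = 2.31e-10) and Vash1 (0.86, SE 0.20), whose products remove the terminal tyrosine of alpha-tubulin, rose, as did the tubulin acetyltransferase gene Atat1 (0.25, SE 0.07). The polyglutamylase genes Ttll11 (-0.91, SE 0.16) and Ttll7 (-0.44, SE 0.11) and Tbcel (-0.37, SE 0.11) fell.

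Of 40 other microtubule regulators, 11 rose and 3 fell, per the authors' deposited table. The doublecortin-like kinase gene Dclk3 had the largest rise (2.53, SE 0.51, mean normalized count 183), followed by adjusted p by Map9 (0.37, SE 0.10) and Nav2 (0.47, SE 0.13), and Map7d2 (-0.33, SE 0.10), the kinase gene Mark1 (-0.34, SE 0.10) and Ndel1 (-0.25, SE 0.09) fell. Of 36 growth cone actin regulators, 7 rose and 4 fell, or 19.4% and 11.1%. The shares were 11.0% and 10.9% over all tested genes, and 20.2% and 15.9% over those whose mean normalized count reached 10000. Only 11 of the 36 reached that count, of which 1 rose and 1 fell. Ablim1 (0.90, SE 0.11), Wasf1 (1.20, SE 0.17) of the WAVE complex and the drebrin gene Dbn1 (0.50, SE 0.11) led the rises, and Cap2 (-0.94, SE 0.19), Enah (-0.53, SE 0.19) and Cap1 (-0.27, SE 0.10) the falls. Of 13 other ankyrin, spectrin and adducin genes, 5 rose and 2 fell, with Epb41 (1.27, SE 0.17) and Add3 (0.57, SE 0.14) higher and Epb41l3 (-0.50, SE 0.14) and Epb41l2 (-0.50, SE 0.18) lower.

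**Figure D4:**
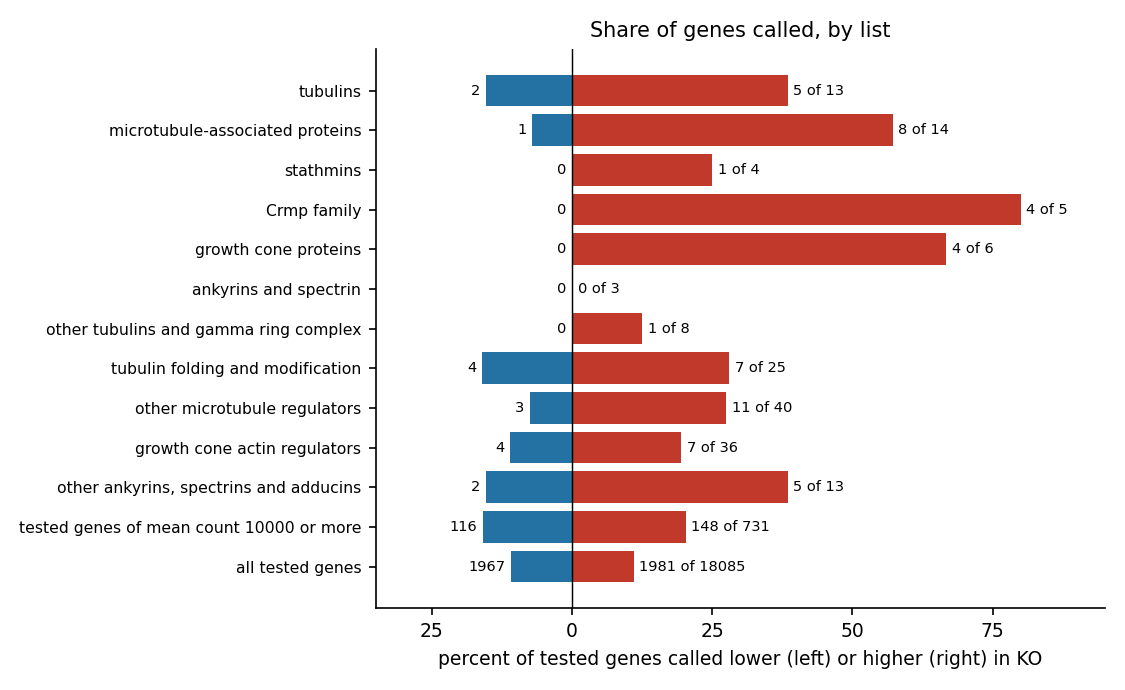
Percent of tested genes called higher (red, right of 0) or lower (blue, left of 0) in KO for the 6 lists of members, the 5 lists of other pathway genes, tested genes of mean normalized count 10000 or more and all tested genes; the counts stand beside the bars. Crmp genes have the largest share higher, 4 of 5, and ankyrins and spectrin have none.

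Cell type markers moved between the genotypes as well, and their part in the results above was not tested. In RNA of whole cultures, fewer cells of a type and less RNA per cell cannot be told apart. Of 8 neuron markers 3 rose and 1 fell, with summed implied counts of 128621 in KO and 145960 in WT. Elavl4 rose to 0.64 (SE 0.13), whereas Eno2 fell to -0.53 (SE 0.10), in the authors' deposited table. Of 8 projection neuron markers 6 rose and 1 fell, with sums of 44857 in KO and 25834 in WT, led by Tbr1 (1.90, SE 0.28) and Neurod2 (1.12, SE 0.21). Of 8 markers of GABAergic interneurons 4 fell and none rose, with sums of 55043 in KO and 103089 in WT, led by Npy (-2.89, SE 0.41) and Lhx6 (-1.26, SE 0.27).

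Most markers of dividing and other cells had lower mean normalized counts than the neuronal markers, though Slc1a2 reached 13490. Neural progenitor markers summed to 3179 implied counts in KO and 3255 in WT with 2 of 8 higher, Hes1 (2.17, SE 0.39) and Eomes (2.52, SE 0.89). Astrocyte markers summed to 20038 in KO and 10620 in WT, most of it Slc1a2 (0.93, SE 0.24), the 1 of 8 called in the authors' deposited table. Oligodendrocyte lineage markers summed to 1863 in KO and 1579 in WT with 1 of 7 tested higher, Mog (0.99, SE 0.17). Microglia markers summed to 213 in KO and 956 in WT with 4 of 6 tested lower, led by Cd68 (-2.29, SE 0.40) and Csf1r (-3.09, SE 0.66). Vascular and meningeal markers summed to 1653 in KO and 1161 in WT with 1 higher and 3 lower of 8. Markers with a mean normalized count under 10 were Sox10, Cx3cr1, Tyrobp, P2ry12, Tmem119, Cldn5 and Lum.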

How the data were processed

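Polyadenylated RNA of 4 KO and 4 WT libraries was prepared with a stranded kit, per the labels, and 1 table of the authors' comparison was used. The submitters' processing notes name mm10, DESeq2 and DESeq, none with a version. No aligner, counting method, use of strand or annotation is given in the sources used here. Per the file headers, the deposited signal is the mean of normalized counts, and fold change and SE are log2 values. As the deposited score the table has the Wald statistic, checked to equal fold change over SE within 2.86e-07. The deposited p-values and adjusted p-values were checked to be its normal p and the Benjamini-Hochberg adjustment over 18085 genes, within 0.477% and 0.757%. The 8135 genes with a p but no adjusted p, all at a mean count of at most 2.99, and 9 with neither were not tested. Depth per library is unknown here, and the mean counts sum to 3.96e+07.

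Signs were turned to KO over WT by the targeted gene. Genes were matched by identifier to GENCODE M21 (GRCm38, the assembly mm10 names), and 26039 rows matched. Lengths are unions of a gene's exons. Implied genotype means assume that the deposited fold change is the ratio of the KO and WT means, whose average is the mean count. Intervals are 95% normal intervals from the SE. The 45 genes and all lists were chosen with earlier results of these data known. Every gene of the list is named. Of other pathway lists up to 3 called genes per direction with the smallest adjusted p are named (1 such gene is not reported here), and of marker lists up to 2 and those under a mean count of 10. Alternatives were other thresholds, sets of genes adjusted over, a t distribution, centring, a correction for GC content and length, and a minimum fold. The counting of calls was tested on simulated data. Python 3.11.15, numpy 2.4.6, pandas 2.3.3, scipy 1.17.1 and matplotlib 3.10.9 were used. Upstream windows are RefSeq's.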

Additional observations from a re-analysis of the deposited data

How the results depend on the processing

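Under the alternatives, between 19 and 23 of the 45 genes were called higher and 2 to 5 lower, except with the t distribution (6 degrees of freedom) and with a minimum absolute log2 fold change of 0.5. The t distribution, with the Benjamini-Hochberg adjustment, left 0 higher and 0 lower (22 and 3 at an unadjusted p under 0.05) and 1 of all tested genes. The minimum fold left 14 higher and 2 lower. At an adjusted p under 0.01, 2522 of all tested genes were called, against 3948. The correction for GC content and exon length gave 5 lower in place of 3, and turned the sign of Map2 (-0.091), Sptbn4 (-0.076), Ank3 (-0.024) and Dpysl4 (-0.014), none of them called either way. Dclk2 turned to 0.023 against the median of tested genes and to 0.027 against that of genes of like count, also with no call. The cause was not tested. Apart from the t distribution, 14 of the 22 higher and 2 of the 3 lower calls were the same under every alternative that gave the gene a value. Not divided by length, Tuba1a made up 93.8% of alpha-tubulin counts in KO and 90.1% in WT.

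No paired analysis was possible because the table has no values per library, and leaving out single replicates was not run for the same reason. Fold changes of genes of low count carry wide errors, such as Tuba1c.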

Other observations

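Some genes outside the naming rule were noted after their values were seen. Svbp, whose product is the partner that vasohibins need to remove the tyrosine of alpha-tubulin, rose to 0.71 on the log2 scale (SE 0.25, adjusted p = 0.0302) in the authors' deposited table, beside Vash1 and Vash2. All 3 adducin genes rose, Add2 at 0.69 (SE 0.21) and Add1 at 0.34 (SE 0.11) beside Add3. Adducins cap actin filaments in the spectrin skeleton. Cdk5r1, the gene of the p35 activator of Cdk5, a kinase that phosphorylates doublecortin and Crmp proteins, rose to 0.48 (SE 0.16, adjusted p = 0.0145).

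Processed copies named after genes of the list had few counts. Marcksl1-ps4 was at 4.98 (SE 1.53, adjusted p = 0.0085) with a mean normalized count of 3.87 in the authors' deposited table, and Tubb4b-ps1 at -0.37 (SE 0.89) with 6.23. Tubb4b-ps1 shares 675 of the 1549 windows of 50 bases of Tubb4b, so its counts are uncertain.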
